A study of Mus musculus with 6 samples.

Results

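The genes of the CARD-BCL10-MALT1 signalling complex were followed in E0771 cells, a mouse mammary carcinoma line, by RNA sequencing. The members were the 10 rows of the deposited table with the symbols Malt1, Bcl10, Card10, Card14, Traf2, Traf6, Tab2, Tab3, Map3k7 and Ikbkg, of 28063 genes in all. All 10 passed the filter on low counts, which kept 14675 genes. Symbols here name mRNAs, and capitals name proteins.

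There were 3 groups of 2 libraries each. The first, Malt1_PD, was E0771 expressing a Malt1 mutant labelled PD, letters that are not spelled out. The second, Malt1_WT, expressed wild-type Malt1, and the third, Vector, carried the control vector. All 3 groups had shared 12 hours of culture with activated CD8 T cells, 3 for each target cell, before they were washed, trypsinised, plated again and lysed after 6 hours, so no group was free of T cell contact. The labels name neither the promoter of the constructs nor whether a population was 1 clone, and with 1 population per form, form and population cannot be told apart. The labels do not tell separate cultures from repeat libraries of 1 culture, so the p-values may rest on technical spread alone.

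In this pathway a CARD scaffold protein is activated by kinases below a receptor and gathers BCL10 into filaments, to which MALT1 binds. MALT1 is both a scaffold and a protease. As a scaffold it brings in the ubiquitin ligase TRAF6, with TRAF2 also described in the complex, and the ubiquitin chains that result are read by TAB2, TAB3 and the regulatory subunit NEMO (the product of Ikbkg). This brings the kinase TAK1 (the product of Map3k7) to the IKK kinases, which release NF-kB. Myeloid cells use CARD9 as a scaffold, and epithelial and endothelial cells CARD10 (also called CARMA3) or, in skin, CARD14.

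Library totals ran from 14045390 to 19962014 counts. A floor of 3 counts per gene and library, which covers counting error only, was 0.149 to 0.213 CPM (counts scaled to library size with TMM factors). The log2 difference of replicate 1 minus replicate 2 had a Spearman rho with gene length of 0.05 in Malt1_PD, -0.53 in Malt1_WT and -0.67 in Vector, over 9569 genes, which are not independent replicates. Of the 10 members, 4 were lower in replicate 1 than in replicate 2 in Malt1_PD, 8 in Malt1_WT and 8 in Vector. Of the carcinoma markers, Krt8 (108 to 124 CPM), Erbb2, Erbb3 and Epcam were counted in every library, while Krt7, Krt18, Krt19 and Cdh1 were at or below 0.598 CPM. The 9 T cell markers in the table, of 13 looked for, summed to 2.21 and 2.26 CPM in Malt1_PD, 1.49 and 2.24 in Malt1_WT, and 2.36 and 2.41 in Vector. Most of this was Lck (1.28 to 1.96 CPM), and Cd3d, Cd3g, Cd8a, Cd8b1, Trac and Trbc2 each had 0 counts in at least 1 library and never more than 5. The 5 myeloid markers in the table, of 6 looked for, summed to 8.28 and 7.30 CPM in Malt1_PD, 7.89 and 9.21 in Malt1_WT, and 11.02 and 9.06 in Vector, so that both Malt1_PD libraries lay below both Vector libraries. Most of this was Cd68 (4.45 to 7.59 CPM) and Lyz2 (2.04 to 3.15 CPM), while Adgre1, Csf1r and Itgam were at or below 0.569 CPM. Cd68 stood at -0.57 on the log2 scale in Malt1_PD against Vector (edgeR, unadjusted p = 0.0191, adjusted p = 0.4995). Lyz2, the other myeloid marker that passed the filter, stood at 0.06 there. Between these groups the libraries of 38.1% of all genes tested did not overlap, in either direction. Of the B cell markers Pax5 stood at 17.5 to 26.6 CPM. The part of other cells in the results was not tested. Bulk counts cannot tell fewer cells of a type from less RNA per cell.

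Of Card9, Card10 and Card14, Card10 was the one well counted in these cells. On TPM, the scale per gene length used here for levels between genes, Card10 (chromosome 15, 78775138 to 78803042 in GRCm38) had 15.9 and 18.4 TPM in Malt1_PD, 16.9 and 20.1 in Malt1_WT, and 13.9 and 17.5 in Vector. All 3 groups overlapped on this scale. Card14 (chromosome 11, 119307768 to 119345375) had 1.24 and 1.21 TPM in Malt1_PD, 1.203 and 1.295 in Malt1_WT, and 1.05 and 1.76 in Vector, on 25 to 44 counts a library. Card10 thus stood 9.95 to 15.5 times above Card14 in the same library. Of the exon bases of Card14, 20.7% are also exon bases of Sgsh on the opposite strand, a lysosomal sulfatase gene at 10.7 to 16.8 CPM. Without the strand setting, reads of the 2 genes there cannot be told apart. Card9 had 2 and 0 counts in Malt1_PD, 1 and 3 in Malt1_WT, and 2 and 1 in Vector. It was at or under the floor in every library, which limits it to a low level at this depth and does not show its absence.

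The sequences just upstream of Card10 and Card9 are shown because Card10 was the best counted of these scaffold genes and Card9 was at or under the floor. Both are RefSeq promoter windows of build GRCm38.p6, 250 bases long, ending just before the annotated start, read 5′ to 3′ on the minus strand, with CG dinucleotides in capitals.
Card10, chr15:78803043-78803292: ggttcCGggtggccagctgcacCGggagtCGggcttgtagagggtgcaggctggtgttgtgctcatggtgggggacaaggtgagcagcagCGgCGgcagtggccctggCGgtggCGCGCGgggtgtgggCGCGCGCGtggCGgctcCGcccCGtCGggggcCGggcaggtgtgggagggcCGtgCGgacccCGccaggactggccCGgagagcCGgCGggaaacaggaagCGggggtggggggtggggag
Card9, chr2:26360910-26361159: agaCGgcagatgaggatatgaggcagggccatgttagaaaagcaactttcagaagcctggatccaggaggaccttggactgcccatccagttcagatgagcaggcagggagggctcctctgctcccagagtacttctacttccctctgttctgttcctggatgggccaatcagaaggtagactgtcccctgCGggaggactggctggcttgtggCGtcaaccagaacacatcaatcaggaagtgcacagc
The Card10 window holds 25 CG dinucleotides, a number that 10.7% of 32841 RefSeq windows of this length reach, and the Card9 window 3, which 71% reach. The median window holds 6. The RefSeq table matched 8 of the 10 members with 12 windows. The NF-kB motif, searched on both strands, was in 2 of these, one each at Bcl10 and Map3k7, against 3.9% of all windows. A match of letters is a description of the window and not a binding site.

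**Figure D1:**
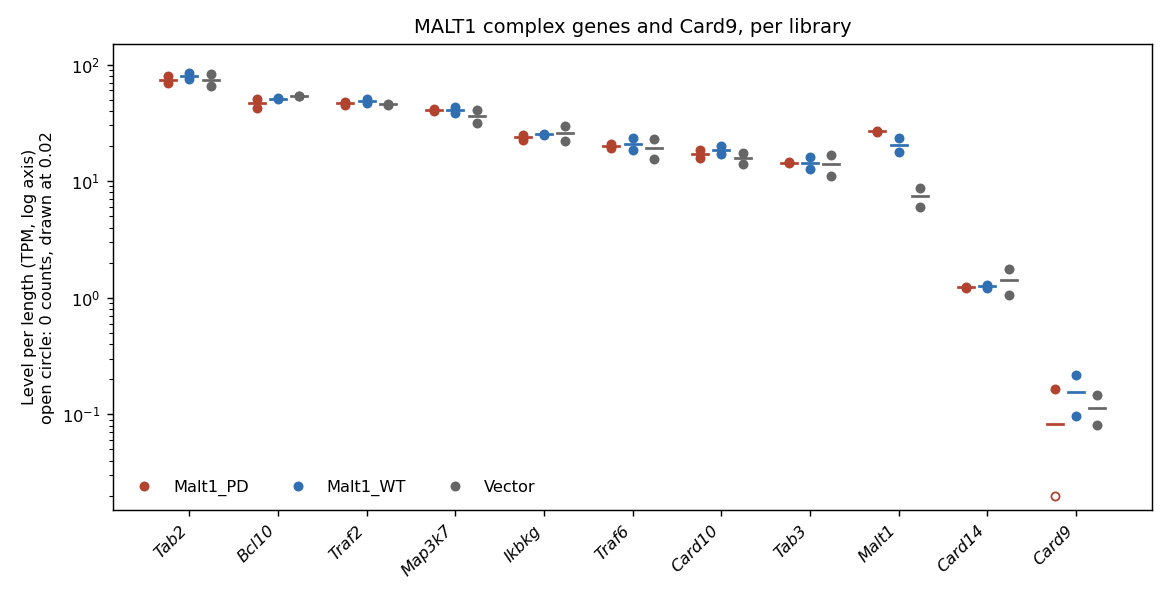
Levels per length (TPM, log axis) of the 10 members and of Card9 in each library, with short lines at group means, for Malt1_PD, Malt1_WT and Vector from left to right (n = 2 each). Malt1 is the member whose Vector libraries lie below all 4 others, at 6.02 and 8.78 TPM, and Card9 lies far under the rest.

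Malt1 (ENSMUSG00000032688.8, chromosome 18, 65430938 to 65479067 in GRCm38) was counted 1668 and 1611 times in Malt1_PD, 944 and 1647 times in Malt1_WT, and 423 and 559 times in Vector. In CPM these were 105 and 95.6 in Malt1_PD, 67.1 and 82.0 in Malt1_WT, and 23.8 and 31.3 in Vector. The 3 groups did not overlap, with Malt1_PD highest and Vector lowest. Both groups with added Malt1 lay above Vector, in the direction of the labels, which give none between the 2 forms. The table counts all Malt1 mRNA together, so the cell's own transcript, the added one and the PD form are not separated. The length deposited for Malt1 is 11735 nt, above that of 93.6% of the genes in the length comparison, and its log2 difference of replicate 1 minus replicate 2 was 0.14 in Malt1_PD, -0.29 in Malt1_WT and -0.39 in Vector. Its longest coding sequence in GENCODE M21 has 2496 nt. The added mRNA's length is not given in the sources used here, and a shorter mRNA would stand higher per length than the TPM values show.

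The partners' levels followed 1 order. Tab2, which encodes a ubiquitin-binding adaptor of TAK1, was highest with a mean of 74.4 ± 6.81 TPM in Malt1_PD, 79.3 ± 6.44 in Malt1_WT and 74.0 ± 12.6 in Vector (SD, n = 2 each). Bcl10, Traf2 and Map3k7 followed in all 3 groups by their means, with Bcl10 and Traf2 overlapping in Malt1_PD. In Vector these 4 were separate from each other and from Ikbkg, the next gene, with no overlap between neighbouring libraries. Ikbkg, Traf6, Card10 and Tab3 came next, and each overlapped its neighbour in Vector. Malt1 had rank 5 of 10 in Malt1_PD at 26.8 ± 0.437 TPM, rank 7 in Malt1_WT at 20.5 ± 3.83 TPM, and rank 9 in Vector at 7.40 ± 1.95 TPM (SD, n = 2 each). In Vector its libraries were separate from Tab3 above and from Card14 below. In Malt1_WT they overlapped those of Traf6, at rank 6, and of Card10, at rank 8. The longest Malt1 transcript in GENCODE M21 has 6404 nt, against 11735 nt deposited. For Tab3 these lengths are 6364 and 6639 nt. Over a shorter length Malt1 would stand higher, so its rank and its separation from Tab3 depend on the length used. The order of the other 9 genes was the same in the 3 groups. Over the 6 libraries the highest TPM of Malt1 was 4.505 times its lowest, and for the partners this ratio lay between 1.12 (Traf2) and 1.68 (Card14).

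Set against Malt1 in the same library, the level of Bcl10, MALT1's direct binding partner, was 1.55 and 1.92 times that of Malt1 in Malt1_PD, 2.82 and 2.20 times in Malt1_WT, and 8.98 and 6.14 times in Vector. Card10 stood at 0.587 and 0.696 times Malt1 in Malt1_PD, 0.949 and 0.863 in Malt1_WT, and 2.31 and 1.997 in Vector. Traf6 stood at 0.714 and 0.779 in Malt1_PD, 1.04 and 1.01 in Malt1_WT, and 2.58 and 2.60 in Vector. For all 9 partners the libraries of the groups did not overlap on these ratios, and every ratio was lowest in Malt1_PD. The ratios share Malt1 as denominator, and its own groups did not overlap. This order thus describes Malt1 and is not a result about the partners. Of the 9 partners, 4 lay above Malt1 in each Malt1_PD library, 6 in each Malt1_WT library and 8 in each Vector library. Malt1 made up 9.05% and 8.19% of the summed TPM of the 10 members in Malt1_PD, 5.89% and 6.89% in Malt1_WT, and 2.27% and 2.74% in Vector. The summed partners stood at 540.2 and 546 CPM in Malt1_PD, 545 and 566 in Malt1_WT, and 515 and 569.9 in Vector. These ratios were not tested, and they depend on the deposited lengths.

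**Figure D2:**
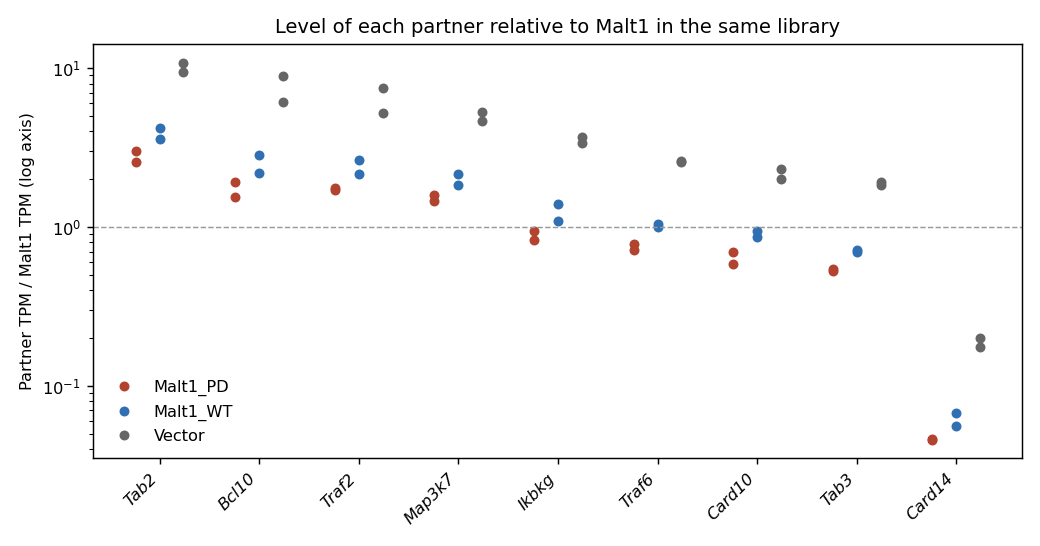
Level of each partner divided by that of Malt1 in the same library (TPM over TPM, log axis), for Malt1_PD, Malt1_WT and Vector from left to right, 2 libraries each. The dashed line marks equal levels, which 4 of 9 partners exceed in Malt1_PD, 6 in Malt1_WT and 8 in Vector.

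Malt1_WT was compared with Vector to ask whether added wild-type Malt1 went with other levels of the complex. Malt1 averaged 74.6 ± 10.5 CPM in Malt1_WT and 27.5 ± 5.30 CPM in Vector (SD, n = 2 each). This is 2.71-fold, or 1.44 ± 0.15 (SE) on the log2 scale. It had rank 2 of 14675 genes by p but missed the threshold of an adjusted p under 0.05 (edgeR's quasi-likelihood test adjusted by Benjamini-Hochberg over all genes tested, adjusted p = 0.0920). It passed in 7 of 14 alternatives, such as DESeq2 (1.45, adjusted p = 1.13e-13) and edgeR after removal of each library's trend with gene length (1.41, adjusted p = 6.91e-05). Among the 7 were the fits without Vector replicate 1 (1.26) and without Vector replicate 2 (1.66). Such fits take no spread from Vector, whose replicates differed most. The SD of the log2 difference between replicates was 0.295 in Vector, 0.138 in Malt1_PD and 0.183 in Malt1_WT. Passing there is thus no sign of stability. With only the 4 libraries compared, the adjusted p of edgeR was 0.621. Over the 14 alternatives the log2 fold change ran between 1.26 and 1.66. So 0 of 10 members were called, against 0.00681% of all genes tested, and at an unadjusted p under 0.05 there was 1, Malt1, against 7.09% of all genes. DESeq2 called 1 member, also Malt1, against 0.211% of all genes.

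The 9 partners lay close to 0 in this comparison, with a median log2 fold change of 0.05 against -0.0012 over all genes tested, 6 above 0 and 3 below. They ran from -0.20 (Card14) to 0.20 (Card10), and the smallest unadjusted p was 0.122 (Card10, adjusted p = 0.777 by edgeR). Card10 averaged 28.4 ± 2.13 CPM in Malt1_WT and 24.8 ± 2.21 CPM in Vector (SD, n = 2 each). Map3k7 (chromosome 4, 31964097 to 32023467) had 79.5 and 82.9 CPM in Malt1_WT against 68.5 and 79.1 CPM in Vector. Bcl10 (chromosome 3, 145922804 to 145934356) had 73.7 and 70.2 CPM in Malt1_WT against 83.0 and 74.7 CPM in Vector. The libraries of these 3 genes did not overlap, Card10 and Map3k7 being higher and Bcl10 lower in Malt1_WT. With Malt1, 4 of 10 members did not overlap, against 32.6% of all genes.

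Malt1_PD was compared with the same Vector libraries, so the values of both comparisons share their control. Malt1 rose 3.65-fold, to 100.5 ± 6.91 CPM in Malt1_PD against 27.5 ± 5.30 CPM in Vector (SD, n = 2 each). On the log2 scale this was 1.87 ± 0.15 (SE). It had the smallest p of all 14675 genes and passed the threshold (edgeR, adjusted p = 0.0265). The call was lost without Malt1_PD replicate 1 (1.79, edgeR adjusted p = 0.598) or replicate 2 (1.94, adjusted p = 0.240). The other 12 of the 14 alternatives kept it, among them fits that leave Vector 1 library and take their spread from the other groups. So 1 of 10 members was called, against 0.00681% of all genes, and the same 1 had an unadjusted p under 0.05, against 8.61%.

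No partner was called in Malt1_PD against Vector. Their median log2 fold change was 0.03, against -0.0011 over all genes, again with 6 above 0 and 3 below. Bcl10 had 63.7 and 71.5 CPM in Malt1_PD against 83.0 and 74.7 CPM in Vector, so that both Malt1_PD libraries lay below both Vector libraries. Its log2 fold change of -0.22 ± 0.10 (SE) was the lowest of the partners and had the smallest p (0.0535 unadjusted, adjusted p = 0.584, edgeR). Its 95% interval ran from -0.45 to 0.0042. Map3k7 had 84.3 and 82.8 CPM in Malt1_PD against 68.5 and 79.1 CPM in Vector and was the highest of the partners, at 0.18 ± 0.10 with an interval from -0.04 to 0.40 (edgeR, adjusted p = 0.652). With Malt1, 3 of 10 members did not overlap, against 38.1% of all genes. With the length trend removed Bcl10 and Map3k7 stood at -0.21 and 0.17, with adjusted p of 0.337 and 0.342.

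**Figure D3:**
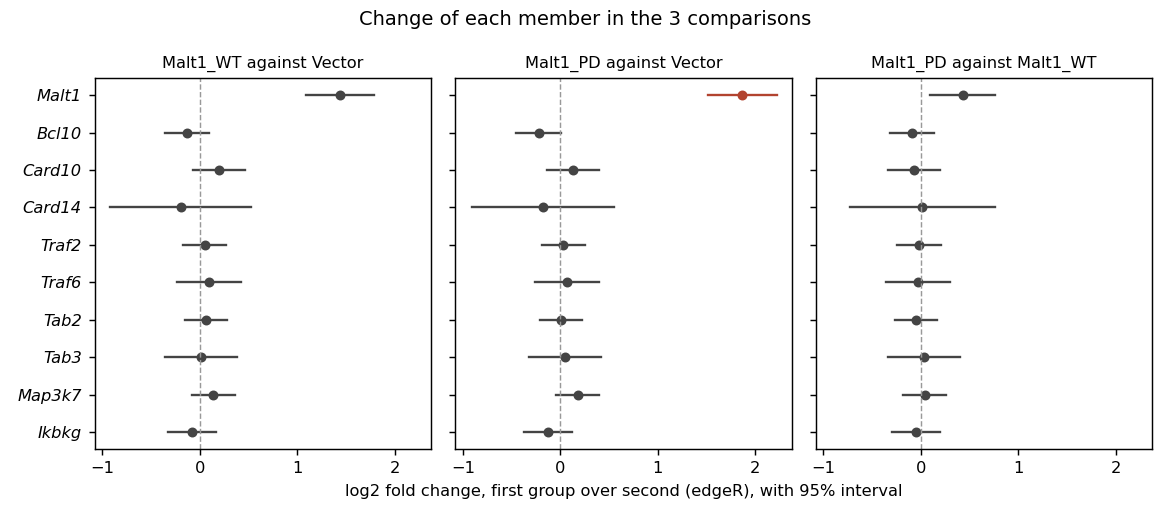
Log2 fold change of each member, first group over second, with its 95% interval from edgeR in the 3 comparisons (2 libraries a group, red where the adjusted p was under 0.05). Malt1 stands at 1.44, 1.87 and 0.43, and the intervals of all 9 partners cover 0 in each comparison.

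The ubiquitin ligase and adaptor genes Traf2, Traf6, Tab2, Tab3 and Ikbkg overlapped between the groups in every comparison. Traf2 (chromosome 2, 25517982 to 25546940), a ubiquitin ligase gene, had 80.8 and 70.9 CPM in Malt1_PD, 76.5 and 77.0 in Malt1_WT, and 77.2 and 71.0 in Vector. Traf6 (chromosome 2, 101678429 to 101701669), the gene of the ligase that binds MALT1, had 50.5 and 50.03 CPM in Malt1_PD, 47.1 and 55.4 in Malt1_WT, and 41.2 and 54.6 in Vector. Traf6 was not lower in replicate 1 than in replicate 2 in Malt1_PD (0.015 log2 units, replicate 1 minus 2), but was lower in Malt1_WT (-0.23) and in Vector (-0.41). Its length of 7883 nt exceeds that of 80.5% of the genes compared.

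Tab2 (chromosome 10, 7905653 to 7956230) had 141 and 149 CPM in Malt1_PD, 147 and 155 in Malt1_WT, and 134 and 154 in Vector. Tab3 (chromosome X, 85574022 to 85634469) had 31.5 and 29.5 CPM in Malt1_PD, 27.2 and 32.2 in Malt1_WT, and 24.7 and 34.0 in Vector. Vector gave both the lowest and the highest value of Tab3. Ikbkg (chromosome X, 74393290 to 74453854) had 60.0 and 62.6 CPM in Malt1_PD, 65.0 and 61.7 in Malt1_WT, and 60.8 and 73.3 in Vector. Its exons share 5.15% of their bases with G6pdx on the opposite strand, a metabolic enzyme gene at 196 to 212 CPM.

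Ikbkg was the partner whose call changed with the libraries used. Without replicate 1 of Vector and of Malt1_WT, the libraries with lower values of long genes, it was called lower in Malt1_WT against Vector (-0.25, edgeR adjusted p = 0.0293) and in Malt1_PD against Vector (-0.26, adjusted p = 0.00287). There the Malt1_PD pair is the sole source of spread, and 6.15% and 13.7% of all genes were called. In it 2 of 10 members were called in each of these comparisons, Malt1 and Ikbkg. Without Vector replicate 2 instead, Ikbkg stood at 0.06 and 0.02.

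Malt1_PD was compared with Malt1_WT to ask whether the 2 forms differed. Malt1 averaged 100.5 ± 6.91 CPM in Malt1_PD and 74.6 ± 10.5 CPM in Malt1_WT (SD, n = 2 each). The difference was 0.43 ± 0.14 (SE) on the log2 scale, with a 95% interval from 0.094 to 0.76. It had an unadjusted p of 0.0182, rank 47 among all genes, and missed the threshold (edgeR, adjusted p = 1.00). Both Malt1_PD libraries lay above both Malt1_WT libraries. It was not called in 13 of the 14 alternatives. The exception, again without replicate 1 of Vector and of Malt1_WT, gave 0.29 (edgeR adjusted p = 0.000131), where 2.35% of all genes were called. So 0 of 10 members were called against 0.00681% of all genes (DESeq2 also called 0), 1 member had an unadjusted p under 0.05 against 1.92%, and 1 did not overlap against 32.1%.

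Between the 2 forms the log2 fold changes of the partners ran from -0.09 (Bcl10) to 0.04 (Map3k7), with a median of -0.03 against -0.0016 over all genes, and none of the 9 separated the libraries of the groups. Of the 9 intervals, that of Card14, the gene with the fewest counts, was widest, from -0.73 to 0.76. That of Tab2, the gene with the most, ran from -0.27 to 0.16. These intervals bound the differences and do not show that the levels were equal.

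**Figure D4:**
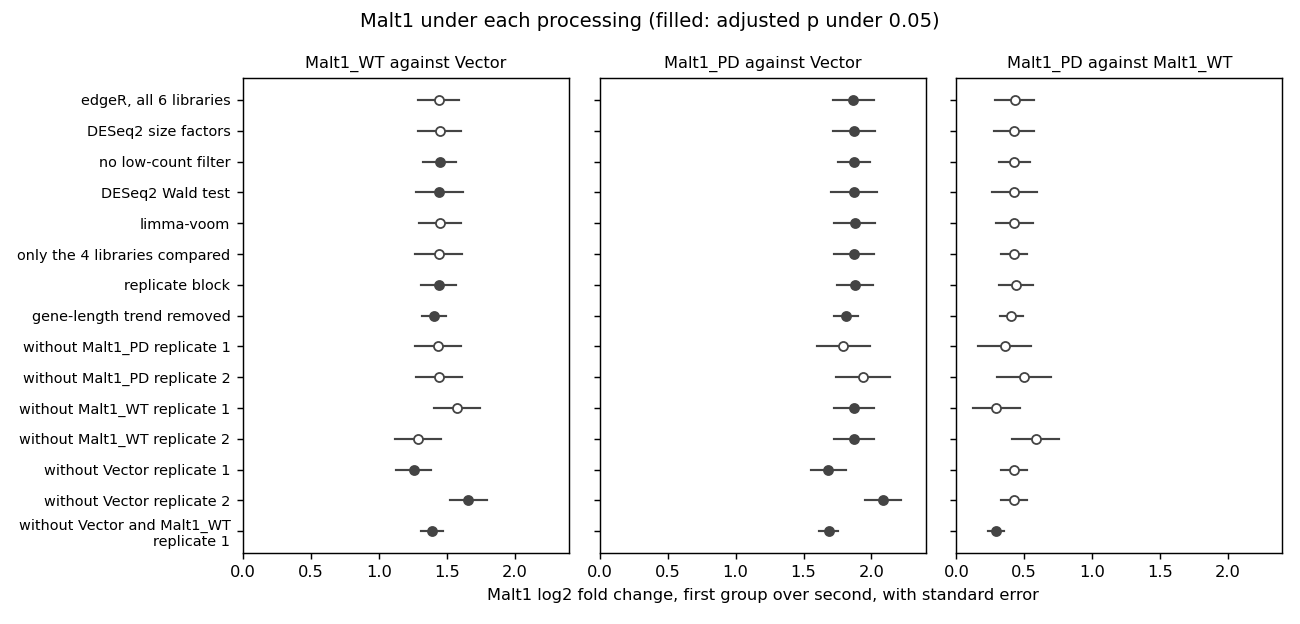
Log2 fold change of Malt1, first group over second, with its standard error, in edgeR's fit of all 6 libraries and in 14 alternatives, for the 3 comparisons. Filled points have an adjusted p under 0.05. All values lie above 0, between 1.26 and 1.66 for Malt1_WT against Vector and between 1.68 and 2.08 for Malt1_PD against Vector.

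Genes around the complex were listed in 4 groups. The upstream group held 22 receptor, G protein and kinase genes that feed the CARD scaffolds, of which 18 were measured. None was called by edgeR, DESeq2 or limma-voom in Malt1_WT against Vector (median log2 fold change 0.12), in Malt1_PD against Vector (0.03) or in Malt1_PD against Malt1_WT (-0.066). Of all genes edgeR called 0.00681% in each. At an unadjusted p under 0.05 edgeR had 1, 1 and 0 of the 18 in that order, against 7.09%, 8.61% and 1.92% of all genes. In each comparison 7 of the 18 did not overlap between the groups, against 32.6%, 38.1% and 32.1% of all genes. Gna11, which encodes a Gq-class G protein subunit, had 33.1 and 35.3 CPM in Malt1_WT against 29.4 and 27.5 CPM in Vector (0.27 ± 0.10 on the log2 scale, edgeR adjusted p = 0.624). Prkcz, the gene of an atypical protein kinase C, had 6.06 and 6.77 CPM in Malt1_PD against 8.995 and 7.78 CPM in Vector (-0.39 ± 0.17, adjusted p = 0.577). F2r, the thrombin receptor gene, had 66.7 and 59.1 CPM in Malt1_PD against 51.5 and 56.4 CPM in Vector (0.22 ± 0.10, adjusted p = 0.590).

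All 14 further ubiquitin enzymes and deubiquitinases were measured. In each comparison edgeR, DESeq2 and limma-voom called 0, where edgeR called 0.00681% of all genes. At an unadjusted p under 0.05 there were 0 of the 14 in each comparison. Of all genes edgeR had 7.09% in Malt1_WT against Vector, 8.61% in Malt1_PD against Vector and 1.92% in Malt1_PD against Malt1_WT. Their medians were 0.05 in Malt1_WT against Vector, 0.03 in Malt1_PD against Vector and -0.04 in Malt1_PD against Malt1_WT. Of the 14, 7 did not overlap in Malt1_WT against Vector, 6 in Malt1_PD against Vector and 8 in Malt1_PD against Malt1_WT. The shares of all genes were 32.6%, 38.1% and 32.1% in that order. Tnip1, which encodes an A20-binding protein, averaged 288 ± 14.2 CPM in Malt1_WT and 258 ± 21.2 CPM in Vector (SD, n = 2 each). Its log2 fold change was 0.16 (edgeR, unadjusted p = 0.104). Rnf31, the gene of HOIP in the linear ubiquitin ligase, averaged 40.2 ± 2.86 CPM in Malt1_PD and 45.1 ± 0.995 CPM in Vector (log2 fold change -0.17, edgeR unadjusted p = 0.119). Tnfaip3, which encodes A20, a MALT1 substrate, averaged 29.8 ± 1.71 CPM in Malt1_PD and 33.3 ± 1.59 CPM in Malt1_WT (log2 fold change -0.16, edgeR unadjusted p = 0.166).

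Of the 13 further IKK and stress kinase genes, all were measured and 0 were called by edgeR, DESeq2 or limma-voom. Beside this, edgeR called 0.00681% of all genes in each comparison. At an unadjusted p under 0.05 edgeR had 1, 1 and 0 of the 13, from Malt1_WT against Vector to Malt1_PD against Malt1_WT, beside 7.09%, 8.61% and 1.92% of all genes. Their medians were -0.03, -0.04 and 0.01 in the same order of comparisons. Ikbke, which encodes an IKK-related kinase of the innate response, had 40.2 and 40.5 CPM in Malt1_PD, 43.2 and 41.3 in Malt1_WT, and 48.4 and 54.6 in Vector. Both forms thus lay below both Vector libraries. Such separation, in either direction, held for 38.1% of all genes in Malt1_PD against Vector and 32.6% in Malt1_WT against Vector. The log2 fold changes of Ikbke were -0.35 ± 0.10 for Malt1_PD (edgeR, adjusted p = 0.381) and -0.29 ± 0.09 for Malt1_WT (adjusted p = 0.579). Tank, the gene of a TRAF-binding scaffold of that kinase, stood at -0.21 ± 0.09 in Malt1_WT against Vector (adjusted p = 0.719).

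Of the 3 other CARD scaffolds and complex partners, Casp8 and Cflar passed the filter. Neither was called by edgeR, DESeq2 or limma-voom, where edgeR called 0.00681% of all genes in each comparison. Casp8, the gene of caspase-8, which can pair with MALT1 in lymphocytes, had 40.6 and 37.9 CPM in Malt1_PD, 31.4 and 35.2 in Malt1_WT, and 40.0 and 38.4 in Vector. Malt1_WT lay below both other groups without overlap, at -0.23 ± 0.10 against Vector (edgeR, adjusted p = 0.699). Malt1_PD stood 0.23 ± 0.10 above Malt1_WT (edgeR, adjusted p = 1.00). Libraries did not overlap for 32.6% of all genes in Malt1_WT against Vector and 32.1% in Malt1_PD against Malt1_WT.

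The 5 genes most like Malt1 over the 6 libraries were found by the root mean square difference of log2 CPM centred on each gene's mean, among 10640 genes of sufficient level. They were Orm1 (0.25 log2 units), Anxa8 (0.26), Igfbp5 (0.28), Wisp2 (0.29) and Chil1 (0.29), where the median gene stood at 0.83. A gene equal in all 6 libraries would stand at 0.81, the root mean square deviation of Malt1 from its own mean. Igfbp5, a binding protein of insulin-like growth factors, had 30.8 and 30.6 CPM in Malt1_PD, 25.4 and 32.9 in Malt1_WT, and 11.5 and 15.4 in Vector. Orm1, an acute-phase protein gene, had 6.51 and 5.46 CPM in Malt1_PD, 4.83 and 4.88 in Malt1_WT, and 2.19 and 2.18 in Vector. Both were chosen for this likeness, so their order over the libraries is a description and not a result. None of the 9 partners was near, the closest being Map3k7 (0.73) and Card10 (0.74).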

How the data were processed

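RNA of 6 libraries was sequenced in pairs of 150 bases with a directional kit, per the labels' protocols. The authors deposited raw counts per gene. The submitters' processing notes name Trim Galore 0.6.0, STAR 2.7.3a, featureCounts 1.6.3 and GRCm38.p6. How strand was counted is not given in the sources used here. The deposited table also has 6 log2 RPKM columns, some with repeated names, which were not used. Symbols turned into dates by a spreadsheet (25) were restored from the identifiers with GENCODE M21, which gives the coordinates. Malt1 has a later identifier version there.

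Counts were fitted across all genes with edgeR 4.0.16 in R 4.3.3 (filterByExpr, TMM factors, glmQLFit, glmQLFTest, a mean per group, no covariate), with Benjamini-Hochberg adjustment over 14675 genes and calls at an adjusted p under 0.05. SE and 95% intervals derive from the quasi-likelihood F. The common dispersion was 0.0101, with 3 residual degrees of freedom. TPM were computed here from the counts and deposited lengths. The fit was also run on simulated counts, drawn with the common dispersion for every gene and group and without a length trend. That run thus cannot speak to the unequal spread of the groups or to the replicate differences tied to length. Alternatives used DESeq2 1.42.0 and limma 3.58.1 (voom), and the others are given at the end.

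Members and gene lists were chosen with earlier results of these data known. Named were all members, Card9, and from each of the 4 lists called genes and up to 3 with the smallest p in a comparison, of which not all are printed. The 5 genes like Malt1 had a mean log2 CPM of at least 1 and no predicted symbol. Of the genes this rule names, 1 is not reported here.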

Additional observations from a re-analysis of the deposited data

How the results depend on the processing

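There were 14 alternatives: DESeq2 (Wald test), its size factors in edgeR, limma-voom, no filter on low counts, the 4 libraries compared only, the replicate block, removal of each library's length trend, each library left out in turn, and, chosen after seeing the data, no replicate 1 of Vector and Malt1_WT. For Malt1_WT against Vector, Malt1 passed the threshold, and the count of members called became 1, with no low-count filter (1.45), DESeq2 (1.45), the replicate block (1.44) and the length trend removed (1.41). Without replicate 1 of Vector and Malt1_WT, Malt1 stood at 1.39 and 2 members were called. Leaving out 1 library gave 1.26 to 1.66 and 0 to 1 members called. For Malt1_PD against Vector, leaving out 1 library gave 1.68 to 2.08 and 0 to 1 members, and the fit without those 2 libraries called 2. For Malt1_PD against Malt1_WT that fit gave 0.29 and 1 member. The cause was not tested.

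Of 378 partner values over these alternatives, 351 kept their direction and 27 turned. Many alternatives refit the same libraries or leave out a library of the group not compared. Their direction was thus nearly fixed, and the 351 do not measure stability. Without replicate 1 of Vector and of Malt1_WT, Tab3 turned to -0.079 in Malt1_WT against Vector. In Malt1_PD against Vector, Traf6 turned to -0.12, Tab2 to -0.084 and Tab3 to -0.16, and in Malt1_PD against Malt1_WT Tab3 turned to -0.078. With 1 library left out, values in Malt1_WT against Vector ran from -0.087 to 0.32 for Traf6, -0.19 to 0.27 for Tab3, -0.033 to 0.17 for Tab2, -0.46 to 0.14 for Card14, -0.0044 to 0.11 for Traf2 and -0.21 to 0.062 for Ikbkg. In Malt1_PD against Vector they ran from -0.12 to 0.29 for Traf6, -0.16 to 0.31 for Tab3, -0.086 to 0.12 for Tab2, -0.45 to 0.15 for Card14, -0.067 to 0.13 for Traf2 and -0.26 to 0.017 for Ikbkg. In Malt1_PD against Malt1_WT they ran from -0.14 to 0.096 for Traf6, -0.077 to 0.17 for Tab3, -0.053 to 0.086 for Card14, -0.12 to 0.075 for Traf2 and -0.14 to 0.012 for Card10.

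Replicate numbers did not pair the libraries over all 3 groups. Differences between replicate 1 and 2 correlated at 0.68 between Malt1_WT and Vector, so these 2 groups shared a replicate difference. In both it fell with gene length (Spearman rho -0.53 and -0.67). The correlation was 0.03 between Malt1_PD and Malt1_WT, and -0.01 between Malt1_PD and Vector. The source of the shared difference was not tested. With the replicate block 1 member was called in each comparison with Vector and 0 between the forms. A fit that leaves a group 1 library assumes that it varies like the others. DESeq2 gave no adjusted p for 1 member in Malt1_WT against Vector. The 8 partners above Malt1 in Vector were 8 on RPKM too, but RPKM uses the same lengths and keeps the order within a library. It therefore cannot test the dependence on length. Among all genes tested, edgeR called 1 in Malt1_WT against Vector, 1 in Malt1_PD against Vector and 1 in Malt1_PD against Malt1_WT. In Malt1_WT against Vector the calls, higher and lower, came to 52 and 61 with no filter, 14 and 17 by DESeq2, 4 and 2 with the block, 27 and 31 with the length trend removed, 19 and 31 without Vector replicate 1, and 468 and 131 without Vector replicate 2. In Malt1_PD against Vector the same settings gave 94 and 94, 20 and 23, 3 and 6, 35 and 60, 47 and 64, and 648 and 280, while leaving out either Malt1_PD library gave 0. In Malt1_PD against Malt1_WT no filter gave 11 and 1.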
